A study of Triticum aestivum and Triticum monococcum subsp. aegilopoides x Triticum urartu with 8 samples.

Results

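The 47 probes described here were picked from arrays of leaf RNA, with each hybrid necrosis set against the healthy hybrid of its own wheat. Their measured levels were at least 8-fold lower in type I necrosis of hexaploid wheat and at least 8-fold higher in diploid type IV necrosis. These 47 members were drawn from the 37826 transcript probes of an Agilent wheat oligonucleotide array. Of these, 22301 met the conditions on spot quality, so the members were 0.211% of the probes that could have been chosen. Those conditions asked for a signal well above background on both hexaploid wild-type arrays and both type IV arrays, and for no spot marked as an outlier on any array. The level of a probe is log2 of its processed intensity minus the 75th percentile of that array, and the members had a mean level at least 3 lower in type I and at least 3 higher in type IV. The members were thus chosen by the very levels of these 8 arrays, and their differences are given as a description, with no test. Where a group's spots were not well above background, the fold gives only a bound. With those bounds, explained below, 36 of the 47 members kept at least 8-fold in both types.

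RNA came from the first leaf of 1-week-old seedlings grown at 23 °C without treatment, and each of the 8 samples was labelled with Cy3 and hybridised to its own array. The hexaploid groups were a wild-type common wheat hybrid and a hybrid with type I necrosis (*Triticum aestivum*). The diploid groups were a wild-type hybrid and a hybrid with type IV necrosis, both crosses of *Triticum monococcum* subsp. *aegilopoides* with *Triticum urartu*. Each group had 2 arrays, and the labels give neither parental lines or alleles nor say that the arrays of a group were separate plants, so a p-value reflects the spread among these arrays alone, and that spread may be technical.

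Hybrid necrosis is the progressive death of leaf tissue in the offspring of healthy parents. It is understood in many plants as an immune response that starts without a pathogen when gene variants from both parents meet, and in common wheat a classic case rests on the complementary genes Ne1 and Ne2. Leaves with such a reaction usually raise transcripts of defence and stress proteins and lower those of photosynthesis.

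The files name most probes, and all members, by expressed sequence tag (EST) contigs, clones or database numbers. None of the 37826 names was found among the symbols, synonyms and accessions of the RefSeq gene table of Chinese Spring wheat, so no member is given a gene name or a role here. For the same reason the leaf and grain markers matched 0 probes, and the labelled tissue was not checked. Lists of defence, photosynthesis and cell death genes also matched 0 probes. The cold and dehydration list matched 2, RD29B and Wcor15, and neither was a member.

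Slide 1 carried the hexaploid arrays and slide 2 the diploid ones, so levels are not compared between the wheats. Type I held positions 1 and 2 of its slide, and type IV held positions 3 and 4 of the other. Within a wheat, the effects of necrosis, of array position and of other genetic differences between the hybrids cannot be told apart. Between 27437 and 28765 probes were well above background on a hexaploid array and between 23626 and 24556 on a diploid array, and no transcript spot was saturated. The 75th percentile of intensity was higher in necrosis, at 2409 and 2222 in type I against 1681 and 1734 in wild type, and at 1207 and 1509 in type IV against 591 and 558, so all differences are relative to a rising reference.

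Mean levels were at least 8-fold lower in type I for 300 of the 22301 probes (1.35%) and at least 8-fold higher in type IV for 440 (1.97%). The 47 members were 15.7% of the first list and 10.7% of the second. Under the same conditions and thresholds 92 probes were lower in both types, 10 were higher in both, and 1 had the opposite pattern to the members. The conditions asked for signal in the groups where the members are high and left their low groups free. They thus favoured the members' pattern in advance, and nothing is read from how these counts compare. Over the members the log2 difference in type I ran from -10.19 to -3.01 with a median of -4.11, and in type IV from 3.08 to 10.25 with a median of 4.30, where the medians over all 22301 probes were 0.07 and 0.0048. Fewer cells of a type and less RNA per cell cannot be told apart in whole-leaf RNA.

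**Figure D1:**
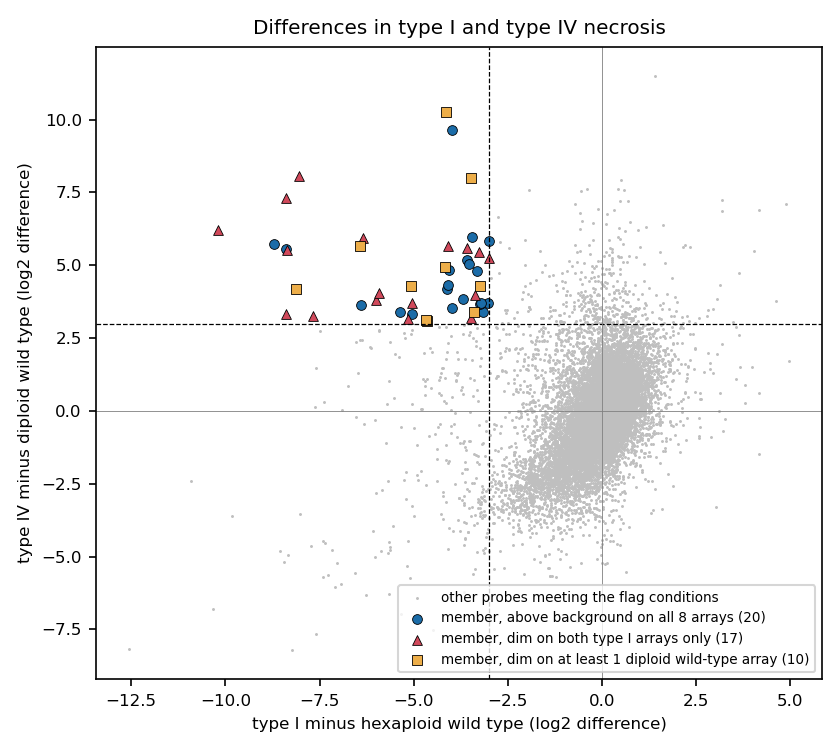
Log2 difference in type I (x axis) and in type IV (y axis) for the 22301 probes that met the conditions on spot quality, each point the difference between the means of 2 arrays. Dashed lines mark the 8-fold thresholds, and the 47 members fill the upper left corner, 20 of them above background on all 8 arrays, 17 dim on both type I arrays only and 10 dim on at least 1 diploid wild-type array.

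The members reached these differences from different starting points. Of the 47, 20 were well above background on all 8 arrays, 24 were dim on both type I arrays, 8 on both diploid wild-type arrays and 2 on 1 of those. The 24 and the 8 include 6 probes that were dim in both groups. Among all 22301 probes, 94.5% were above background on all 8 arrays, 0.659% were dim on both type I arrays and 2.79% on both diploid wild-type arrays. Among the 300 probes at least 8-fold lower in type I, 33.3% were dim on both type I arrays. Of the 440 at least 8-fold higher in type IV, 34.3% were dim on both diploid wild-type arrays. Since the rule asked for large differences on these same arrays, nothing is read from the members' own counts.

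A spot that is not well above background gives only a bound. For such members the fold is stated as "at least", and the mean of the bright group is set against a floor. On each dim array that floor is the probe's own value or the lowest signal of any probe well above background, whichever is higher, and the floors of the arrays are averaged. Where the probe's own values set the floor, the bound equals the ratio of the measured levels and is no strict lower limit. For the 24 members dim in type I these bounds ran from 1.97-fold to 328-fold with a median of 12.3-fold, and 15 of the 24 were at least 8-fold. For the 8 members dim in diploid wild type they ran from 3.01-fold to 258-fold with a median of 8.30-fold, and 4 of the 8 were at least 8-fold. With the bounds in place of measured values, 36 of the 47 members kept at least 8-fold in both types.

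**Figure D2:**
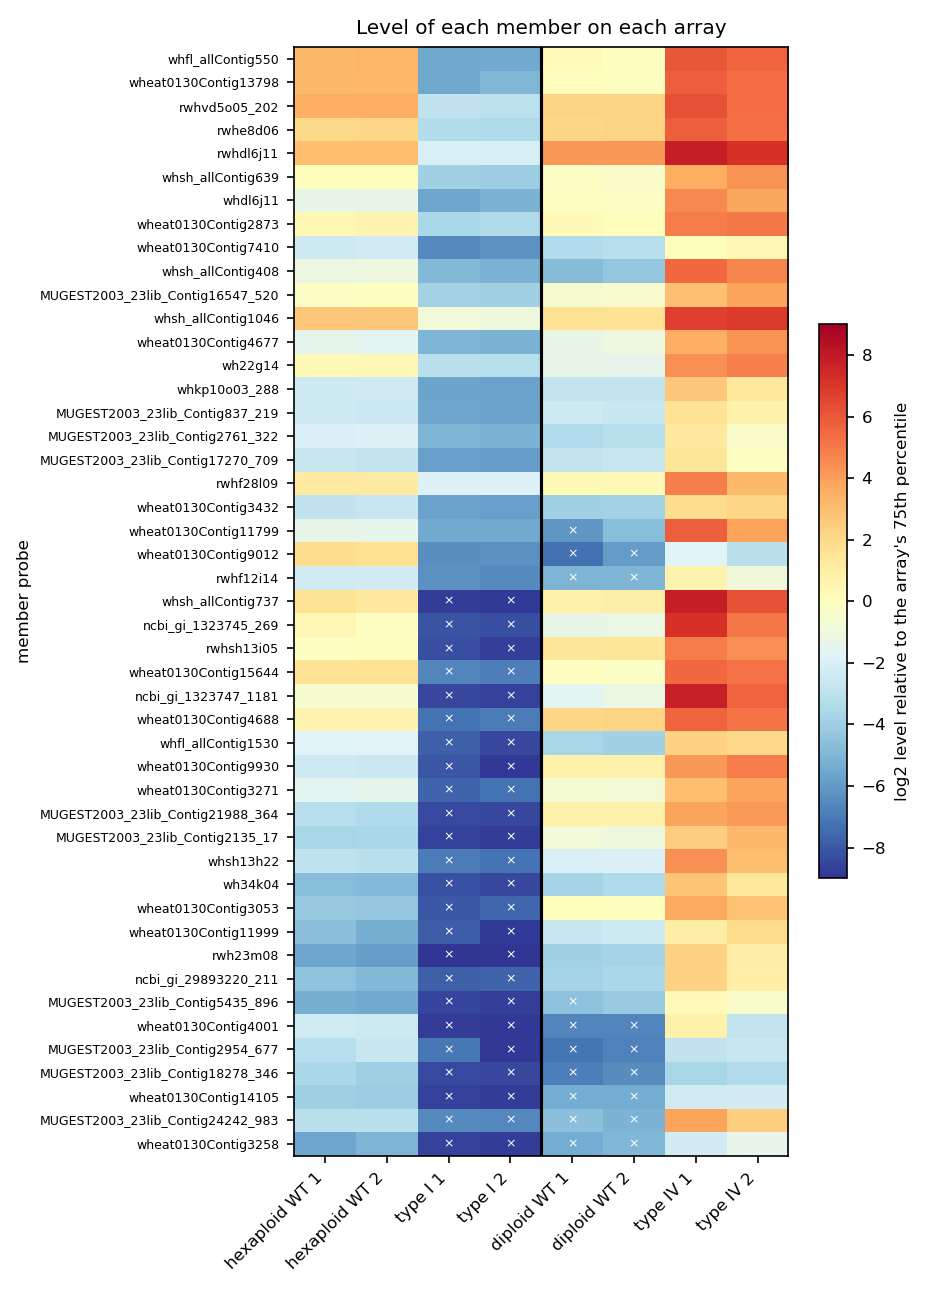
Level of each of the 47 members (rows) on each of the 8 arrays (columns), as log2 relative to the 75th percentile of the array, with a cross where the spot was not well above background. The rows are ordered by detection and then by the type I difference, and the type I columns are the lowest of the hexaploid arrays and the type IV columns the highest of the diploid arrays in every row. Colours left and right of the black line come from different slides.

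The first set holds the 17 members that were dim on both type I arrays but well above background in the other groups, transcripts present in both wild types, lost to background in type I and raised in type IV. Their type IV differences ran from 3.17 to 8.08 with a median of 5.23. The probe ncbi_gi_1323747_1181 had the largest value of the smaller of its 2 differences. Its processed intensity was 1189 on both wild-type hexaploid arrays, and the type I arrays read 6.68 and 5.66. The wild-type diploid arrays read 199.5 and 253, and the type IV arrays 269726 and 75392. The type I spots were at background, the type IV spots were brighter than the diploid wild-type spots, and no groups overlapped within a wheat, as the rule favoured. The fall in type I was at least 74.5-fold, and the level in the diploid went from -1.35 ± 0.30 to 6.72 ± 1.53 (SD, n = 2 each), a difference of 8.08.

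A second probe with a neighbouring database number, ncbi_gi_1323745_269, moved in the same way. In the hexaploid its levels went from 0.48 and -0.07 to -8.15 and -8.23. In the diploid they went from -1.28 and -1.16 to 7.11 and 5.07. Neither pair of groups overlapped, and type IV array 1 was again the higher. The fall in type I was at least 123-fold and the type IV difference was 7.31. The files do not say whether the 2 probes detect related transcripts.

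The probe whsh_allContig737 had a type I difference of -10.19 with its dim spots at their own values, and by the bound it was at least 278-fold lower. Hexaploid intensities went from 4943 and 3974 to 5.53 and 4.79. Diploid intensities went from 983 and 1016 to 278884 and 108673, a difference of 6.21 on the log2 scale. Necrotic and wild-type arrays were far apart in both wheats, in opposite directions.

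The probe wheat0130Contig15644 had the highest bound in this set, at least 328-fold lower in type I. Levels of 1.59 and 1.70 in the healthy hexaploid stood against -6.63 and -6.83 in type I, and levels of -0.05 and -0.25 in the healthy diploid against 5.49 and 5.26 in type IV. Here the type IV arrays lay close together, and the type IV difference was 5.53. The hexaploid levels of whfl_allContig1530 went from -1.82 and -1.69 to -7.75 and -8.44, and its diploid levels from -3.68 and -3.88 to 2.28 and 2.03. The fall in type I was at least 31.7-fold and the type IV difference was 5.93, again with little spread between the type IV arrays.

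Other members of this set started high in the diploid. Diploid levels of wheat0130Contig4688 went from 2.14 and 2.21 to 5.68 and 5.16, a difference of 3.25, and its fall in type I was at least 164-fold. For rwhsh13i05 the diploid levels went from 1.36 and 1.43 to 4.99 and 4.43, and the fall in type I was at least 101-fold. At the other end, the bound for rwh23m08 was only 1.97-fold, from wild-type intensities of 34.1 and 28.9, so its loss rests on spots close to background. These 3 probes were picked after their values were seen, to show the range of the set.

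**Figure D3:**
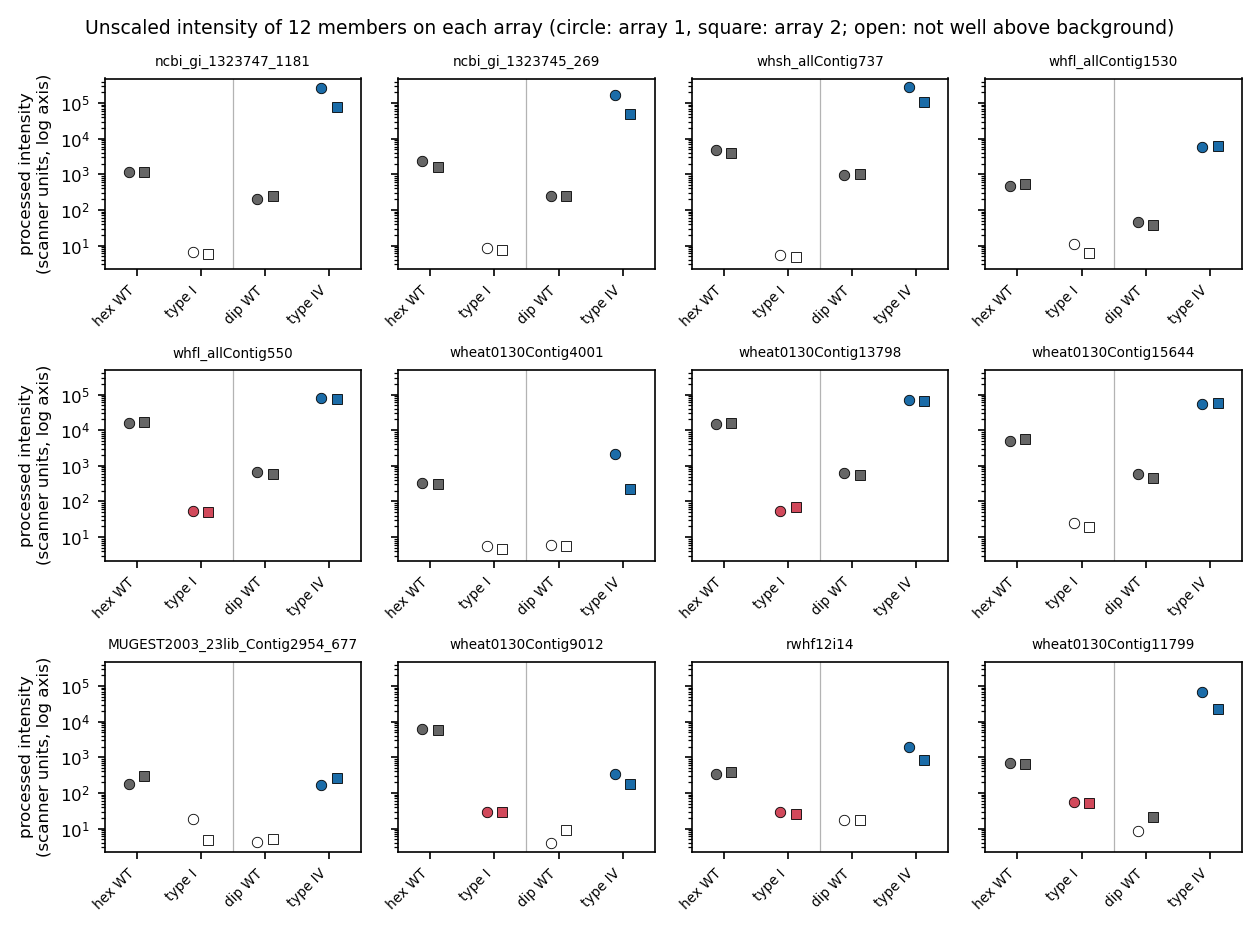
Processed intensity, unscaled and on a log axis, of the 12 members with the largest value of the smaller of their 2 log2 differences, on each of the 8 arrays (circles array 1, squares array 2, open symbols not well above background). In each panel the type I points lie below hexaploid wild type and the type IV points above diploid wild type, and in 7 panels the type I spots are open.

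The second set holds the 20 members above background on all 8 arrays, for which both differences are measured on both sides. Their type I differences ran from -8.69 to -3.01 with a median of -3.83, and their type IV differences from 3.32 to 9.64 with a median of 4.26. The background correction still mattered, since 12 of the 20 met both thresholds with normexp. Of the 20, the one with the largest smaller difference was whfl_allContig550. Its hexaploid intensities went from 15454 and 16667 to 52.9 and 52.0, a 414-fold fall, and its diploid intensities from 667 and 574 to 79584 and 73281, a 52.5-fold rise. After scaling, the arrays of each group lay within 0.44 of each other on the log2 scale and the groups were far apart.

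The probe wheat0130Contig13798 had differences of similar size. Its hexaploid intensities went from 14607 and 16290 to 53.5 and 71.4, a 338-fold fall, and its diploid intensities from 647 and 544 to 68131 and 64259, a 47.5-fold rise. The files give no link between the names of the pair.

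Some of these probes were bright in hexaploid wild type, fell a long way and were still above background in type I. Intensities of rwhvd5o05_202 went from 18362 and 19671 to 329 and 286 in the hexaploid, and from 2679 and 2554 to 90845 and 63394 in the diploid. Its log2 differences were -6.39 and 3.63. In rwhe8d06 the levels were 2.01 and 2.04, then -3.27 and -3.38 in the hexaploid, and 2.15 and 2.20, then 5.83 and 5.28 in the diploid, differences of -5.35 and 3.38.

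The probe whsh_allContig1046 was bright throughout, with hexaploid intensities of 10849 and 11473 in the healthy leaf against 1362 and 1151 in type I. Its diploid intensities were 1819 and 1652 in the healthy leaf against 124905 and 178058 in type IV. The level was thus lowered rather than lost in type I, 12.1-fold, and raised 36.6-fold in type IV. The largest type IV difference in the set was that of whsh_allContig408, whose diploid intensities went from 21.9 and 27.7 to 55663 and 38305, a 798-fold rise after scaling. In the hexaploid they went from 809 and 866 to 79.7 and 64.4, a difference of -3.98 on the log2 scale.

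A further 5 probes of the set are named by the rule. The type I and type IV differences were -4.11 and 4.19 for whsh_allContig639, and -4.10 and 4.33 for whdl6j11. Those of wheat0130Contig2873 were -4.07 and 4.85, those of MUGEST2003_23lib_Contig16547_520 were -3.68 and 3.85, and those of wheat0130Contig4677 were -3.54 and 5.03. In wheat0130Contig2873 the type IV arrays were nearly equal, at 4.98 and 5.04. In MUGEST2003_23lib_Contig16547_520 they were 2.93 and 3.83, here with array 2 the higher.

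The third set holds the 10 members dim on at least 1 diploid wild-type array, transcripts at or near background in the healthy diploid leaf. All were above background in type IV, as the rule asked, some only faintly. The type IV intensities of MUGEST2003_23lib_Contig18278_346 were 92.1 and 148. With normexp background correction the type IV differences of the set ran from -0.08 for that probe to 7.38 for wheat0130Contig11799. The probe wheat0130Contig11799 had a type IV difference of 10.25, from diploid intensities of 8.66 and 21.4 to 67471 and 22599. Only 1 of its diploid wild-type spots was above background, so this size is not exact. In the hexaploid it went from 697 and 667 to 54.3 and 51.2, a 17.5-fold fall between arrays that all passed the background test.

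Both diploid wild-type spots of wheat0130Contig4001 were dim, and its type IV intensities of 2153 and 218 differed more than those of any other member. By the bounds, the rise in type IV was at least 17.7-fold and the fall in type I at least 20.5-fold. With type IV array 2 alone the bound for the rise of wheat0130Contig4001 was 5.02-fold, with array 1 alone 62.0-fold, and with normexp its type IV difference was 2.12. For rwhf12i14 the diploid intensities went from 17.9 and 16.9 to 1944 and 814, and the hexaploid ones from 349 and 378 to 30.1 and 24.9. Its bound for the rise, 30.8-fold, equals the ratio of the measured levels.

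In wheat0130Contig9012 the fall was measured on spots above background and the rise was a bound. Its hexaploid intensities went from 6218 and 5777 to 29.1 and 28.7, and its diploid ones from 3.84 and 8.95 to 340.04 and 180.05. The fall in type I was 281-fold on measured spots, and the rise in type IV at least 6.38-fold. In MUGEST2003_23lib_Contig2954_677 the bounds were 14.5-fold in type I and 5.43-fold in type IV. With normexp the type IV differences were 1.01 for wheat0130Contig9012 and 0.71 for MUGEST2003_23lib_Contig2954_677. The highest value in the place of a bound for type IV, 258-fold, belonged to MUGEST2003_23lib_Contig24242_983, and this probe was picked after its value was seen. Its diploid levels were -4.63 and -5.13 against 3.80 and 2.46. Here the dim spots set the floor themselves, so 258-fold is the ratio of the measured levels and no strict lower limit. With normexp its type IV difference was 5.72.

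Near the threshold, the members with the smallest of the 2 differences were ncbi_gi_29893220_211 at -3.01 in type I, wheat0130Contig3432 also at -3.01, rwhf28l09 at -3.02, and wheat0130Contig14105 at 3.08 in type IV. Just outside lay wheat0130Contig5655 at -2.94 in type I, wheat0130Contig4578 at 2.94 in type IV, MUGEST2003_23lib_Contig16581_987 at -2.93 in type I and MUGEST2003_23lib_Contig12996_496 at 2.87 in type IV. A further 2 probes, wheat0130Contig3640 and wheat0130Contig1007, passed both thresholds but had only 1 type IV spot above background and were left out.

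The size of the response differed among the members, here with dim spots at their own values. Both differences were at least 16-fold in 17 members and at least 32-fold in 8. The type I difference was the larger in 23 and the type IV difference in 24. Taking every pair of single arrays, 44 members were at least 8-fold lower in type I in all pairs, 37 were at least 8-fold higher in type IV in all pairs, and 34 were both.

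The spread between the arrays of a group was widest in type IV. The median SD over the members was 0.07 in hexaploid wild type, 0.09 in type I and 0.10 in diploid wild type, against 0.59 in type IV. A wider spread in type IV was also seen over all 22301 probes. Their median size of the gap between the arrays was 0.22 in type IV, against 0.06 in hexaploid wild type, 0.05 in type I and 0.07 in diploid wild type. In type IV it was 0.83 over the members and 0.48 over the 393 other probes at least 8-fold higher there. Over the 253 other probes at least 8-fold lower in type I it was 0.69 in type IV. The rule used the mean of the type IV arrays and asked that each be above background, so their difference is a description too. Type IV array 1 was higher in 30 members and array 2 in the rest, with a gap over 0.5 in favour of array 1 for 26 members and of array 2 for 8. Leaving out either type IV array moved the type IV fold by over 1.5 times in 16 members, all of them higher on array 1. The gap, array 1 less array 2, ran from -0.93 for wheat0130Contig11999 to 3.63 for wheat0130Contig4001, with a median of 0.57.

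Of the 6 probes with the widest gaps, 5 were also among the 12 with the largest smaller difference, rwhf28l09 being the exception. After wheat0130Contig4001 came ncbi_gi_1323747_1181 at 2.16, ncbi_gi_1323745_269 at 2.05, wheat0130Contig11799 at 1.90, rwhf28l09 at 1.72 and whsh_allContig737 at 1.68. The closest agreement was in wheat0130Contig2873 and wheat0130Contig14105, both at -0.07, and whsh_allContig1046 at -0.19.

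The pattern was shared with other probes lost in type I. Of the 393 other probes at least 8-fold higher in type IV, 32.3% were higher on array 1 and the median gap was -0.26, against 63.8% and 0.57 in the members. Of the 253 other probes at least 8-fold lower in type I, 65.6% were higher on type IV array 1 with a median gap of 0.42. Over all 22301 probes the share was 46.3% and the median -0.03. Probes are not independent units and only 1 pair of arrays stands behind these shares, so the contrast was not tested. With scaling on spike-in controls the members' share became 53.2% with a median gap of 0.02, that of the other raised probes 10.9% and that of all probes 8.38%. For the other probes lost in type I the share became 45.8% with a median gap of -0.12. The size of the members' gap thus depended on the scaling.

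**Figure D4:**
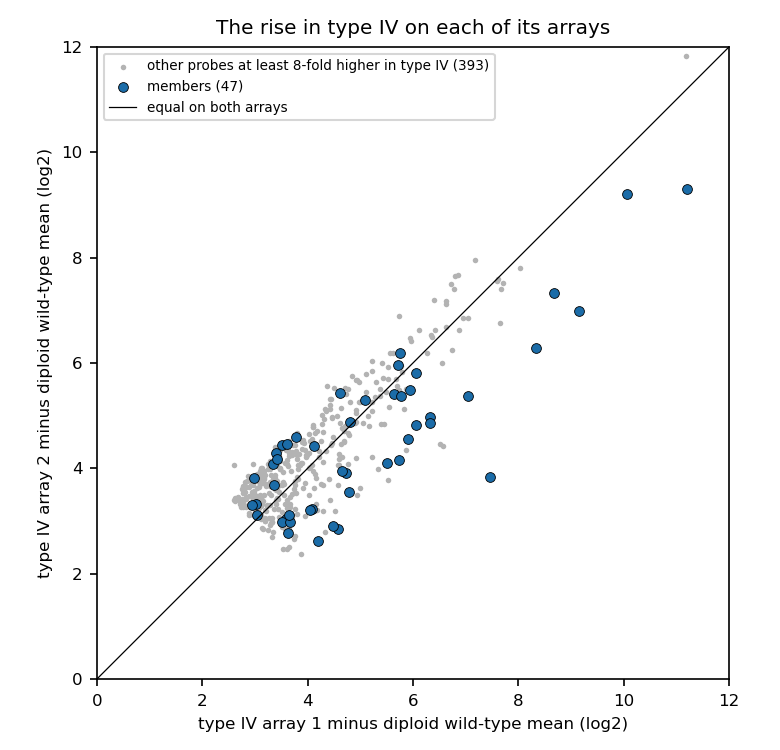
Rise of each probe on type IV array 1 (x axis) and type IV array 2 (y axis), each as the log2 difference from the mean of the 2 diploid wild-type arrays, for the 47 members (blue) and the 393 other probes at least 8-fold higher in type IV (grey). The line marks equal rises, and 30 of the 47 members lie below it, where array 1 is the higher.

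Probes that share a clone or contig name with a member were read on the same 8 arrays. The rule scored them too, and those that are no members missed its conditions or thresholds. They are thus no independent check. Names were matched after dropping a leading r and a trailing number, and the files do not say what these mean. One pair, whdl6j11 and rwhdl6j11, were both members: the second had differences of -5.04 and 3.32, from levels of 2.96 and 2.99 to -2.02 and -2.10 in the hexaploid and of 4.17 and 4.21 to 7.86 and 7.17 in the diploid. A further 6 members had a partner that was not a member, and these partners were tested with limma over all probes, with Benjamini-Hochberg adjustment. All 4 partners bright enough to be tested in type I fell, where 19.6% of 28520 probes were called lower and 22.9% higher. In rwh34k04 and whvd5o05_574 only wild type was above background on both hexaploid arrays, so a fall was favoured in advance. Of the 4 tested in type IV, 3 rose and 1 fell, where 33.9% of 24631 probes were called higher and 39.1% lower. In wh23m08 only type IV was above background in the diploid, so a rise was favoured in advance. These counts are therefore not read as agreement with the members. In either direction, 42.5% were called in type I and 72.9% in type IV. The type IV effect less the type I effect was called for all 5 partners tested, where 51.7% of 29589 probes were called, 18.7% higher and 33.0% lower. The call was lost for rwh34k04 with normexp background correction (limma adjusted p = 0.152) and for whe8d06 with spike-in scaling (limma adjusted p = 0.242), and for rwh34k04 and wh23m08 it rests on dim spots in 1 wheat.

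Both whf28l09 and whvd5o05_574 moved down in type I and up in type IV, as their members did. Hexaploid levels of whf28l09 went from -1.26 and -1.31 to -4.09 and -4.05, and diploid levels from -2.17 and -2.06 to 1.59 and -0.10, with no overlap of groups. Its type I difference was -2.78 (SE 0.50, limma adjusted p = 0.008) and its type IV difference 2.86 (SE 0.50, limma adjusted p = 0.00315). The fit shares its estimate of the spread over all groups, so the SE is the same in both types. The SD of whf28l09 was 1.20 in type IV, 0.08 in diploid wild type, 0.04 in hexaploid wild type and 0.03 in type I. The shared SE thus understates its spread in type IV and overstates that in type I. In whvd5o05_574 the differences were -3.44 in type I (SE 0.30, limma adjusted p = 0.000618) and 1.76 in type IV (SE 0.30, limma adjusted p = 0.00258), and only 1 of its type I spots was above background. With the diploid arrays alone the type IV calls stayed, with larger p-values (limma adjusted p = 0.0193 for whf28l09 and 0.0174 for whvd5o05_574). Without type I array 1 the type I difference of whf28l09 was -2.76 and no longer called (limma adjusted p = 0.0503), while with the hexaploid arrays alone it was called (limma adjusted p = 3.52e-05).

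The partner of rwh23m08, wh23m08, was dim on all hexaploid arrays and so was not tested there. In the diploid it went from -7.21 and -6.06 to -0.61 and -1.68 and was at least 15.7-fold higher in type IV (limma adjusted p = 0.000185). With the diploid arrays alone it was still called (limma adjusted p = 0.00334).

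The rwhe8d06 pair moved in opposite directions in type IV. The member rwhe8d06 was 10.4-fold higher in type IV, while whe8d06 went from 2.60 and 2.64 to 0.26 and -0.09 there and fell by 2.53 (SE 0.12, limma adjusted p = 2.39e-05). With the diploid arrays alone whe8d06 was still called lower in type IV (limma adjusted p = 0.0014). In type I it fell by 0.72 (SE 0.12, limma adjusted p = 0.00668), a call that was lost with spike-in scaling (-0.32, limma adjusted p = 0.558) and without type I array 1 (-0.70, limma adjusted p = 0.0504). The probe rwh34k04, partner of wh34k04, fell at least 4.04-fold in type I (limma adjusted p = 0.00157), from levels of -4.64 and -4.81. It was dim on all 4 diploid arrays, where wh34k04 itself went from intensities of 43.8 and 52.4 to 8121 and 3674. The last partner, wheat0130Contig4001_2, was dim on all 8 arrays, so neither it nor rwh34k04 gives a type IV difference to set beside its member.

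Over the whole array, among 894 such pairs with both probes passing the spot conditions, the differences of the pair lay within 1 on the log2 scale for 95.2% of pairs in type I and 85.0% in type IV. The median gap was 0.14 in type I and 0.29 in type IV. Where both probes of a pair changed at least 2-fold, the signs were the same in 96.3% of 54 pairs in type I and 93.7% of 191 pairs in type IV.

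**Figure D5:**
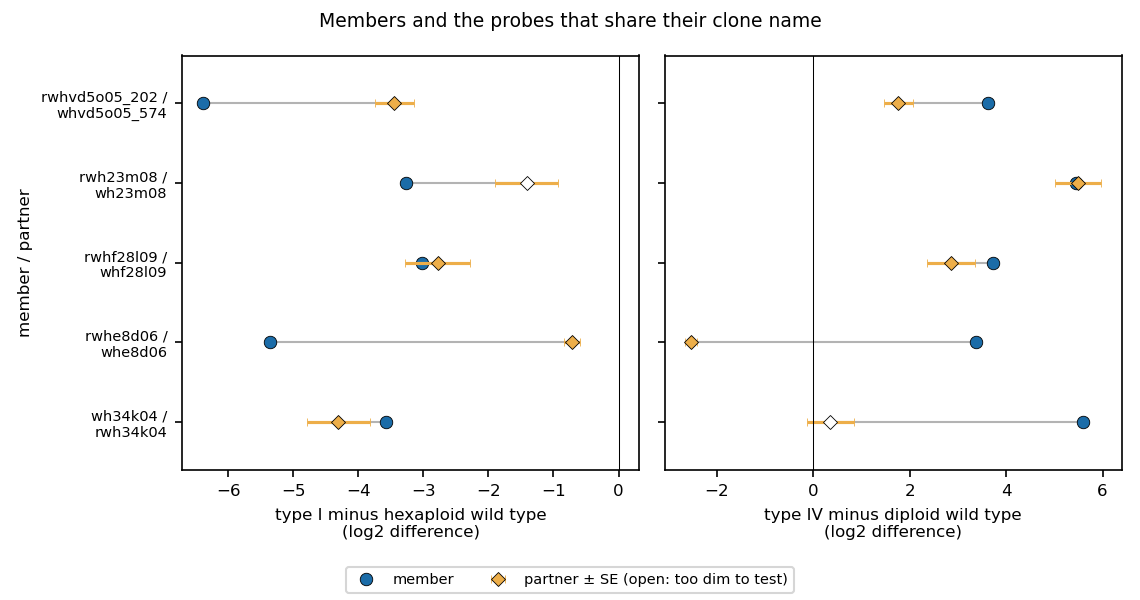
Log2 difference in type I (left) and type IV (right) of members (blue circles) and of the probe that shares their clone name (yellow diamonds, with the SE of the limma fit, open where the probe was too dim to be tested). The rwhe8d06 pair lies on opposite sides of 0 in type IV, at 3.38 and -2.53.

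By the start of their names, 16 members were wheat0130 contigs, 10 MUGEST sequences, 7 clones named rwh, 5 clones named wh, 4 whsh_all contigs, 2 whfl_all contigs and 3 probes named by a database number. The wheat0130 contigs were 34.0% of the members and 42.1% of the 22301 probes that met the conditions. The MUGEST sequences were 21.3% and 17.4%, and the database numbers 6.38% and 0.421%. These shares describe the array's sources only.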

How the data were processed

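The labels' protocols describe total RNA extracted with an RNeasy Plant Mini kit and Cy3 labelling of 0.5 ug with the Quick Amp kit. The authors' deposited scanner files hold spot intensity from Agilent Feature Extraction, with the protocol GE1_1010_Sep10. Its version is 10.10.1.1 in the headers, while the submitters' processing notes name 9.5. The processed intensity is background-corrected per the file headers and was used as deposited. The authors' value table equals it times 1 factor per array, between 0.926 and 3.12, within 0.0586% for 98% of the probes above 50. It is linear and not centred, and the median of each column lies between 189 and 338.

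Log2 of the intensity minus each array's 75th percentile was the level. Control spots and 68 outlier-flagged probes were left out. Fits used limma 3.58.1 in R 4.3.3 on all 8 arrays with a mean per group, and the fit was tested on simulated data. A comparison tested the probes that were above background on both arrays of 1 or more of its groups. Calls are at an adjusted p under 0.05, two-sided.

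The members, lists and tests were chosen with earlier results of these data known. Members named one by one are the 12 with the largest smaller difference, the 10 such above background on all arrays, those with the widest and closest type IV arrays, the brightest in hexaploid wild type and those at the threshold; exceptions are marked. Alternatives were other scalings, normexp (offset 50, on median signals, since the files hold no mean signal), spike-in scaling over 151 E1A spots, other filters and thresholds, single arrays left out and a replicate block. Precision is limited by having 2 arrays a group.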

Additional observations from a re-analysis of the deposited data

Results flagged for a closer look

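In 5 name partners the type IV effect less the type I effect (log2) was called by the test of that difference itself, as were 51.7% of the 29589 probes tested. It was 5.64 for whf28l09 (limma adjusted p = 0.00185), 5.21 for whvd5o05_574 (limma adjusted p = 0.000394), 6.90 for wh23m08 (limma adjusted p = 0.000771) and 4.65 for rwh34k04 (limma adjusted p = 0.00322). It was -1.81 for whe8d06 (limma adjusted p = 0.00072). The values of wh23m08 in the hexaploid and of rwh34k04 in the diploid were dim, so these 2 differences are not exact. With normexp the difference of rwh34k04 was 0.49 and not called (limma adjusted p = 0.152), and with spike-in scaling that of whe8d06 was -0.85 and not called (limma adjusted p = 0.242).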

How the results depend on the processing

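Between 44 and 51 probes met the rule with median centring, either quantile normalization, the authors' value table, no filter on dim probes, outlier-flagged spots kept, or a single array left out (46 to 51). With normexp 20 met it, all of them members, and the medians over the 47 became -2.88 in type I and 3.84 in type IV. The offset of 50 raises dim values by construction, and 1 member, MUGEST2003_23lib_Contig18278_346, then had a type IV difference of -0.08. With spike-in scaling 70 met it, 37 of them members, and the medians were -3.71 and 5.66. The count was 20 above background on all 8 arrays, 113 at 4-fold and 17 at 16-fold. None of the 780 alternative values of the 26 members named by the rule changed sign. The members were chosen for large differences on these arrays, so this was favoured in advance. Type I values cannot change when a diploid array is left out, nor type IV values when a hexaploid one is. With the replicate block neither can change. MUGEST2003_23lib_Contig18278_346 was not among the 26.

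Over all probes, 12126 were called in type I and 17960 in type IV. With the diploid arrays alone 15078 were called in type IV. With spike-in scaling the medians of the 22301 probes moved to 0.47 in type I and 1.37 in type IV, and the members' differences relative to these stayed of opposite sign. The split of calls was 6539 higher and 5587 lower in type I (3202 and 1594 with spike-in scaling), and 8341 and 9619 in type IV (16536 and 1927 with spike-in scaling, 6609 and 12615 with normexp). The type I count was 4796 with spike-in scaling and 19335 with the hexaploid arrays alone, and 6191 to 16614 with 1 array left out. It was 7091 or 7354 without hexaploid wild type 1 or 2 and 6191 or 6262 without type I 1 or 2. With 1 array left out, a lone array is assumed to vary like the others. The name partners lower in type I numbered 2 to 4 with 1 array left out (2 without type I array 1, the cause was not tested).

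The labels give same-numbered arrays a shared number and do not say that they are paired. Their deviations correlated at -0.05 in the hexaploid and -0.01 in the diploid. These values show no shared effect, but with so few arrays they cannot exclude a pairing. With a replicate block, 11069 and 17482 probes were called, the name partners' calls stayed at 4 lower and 3 higher, and the member count and both medians (-4.11 and 4.30) were equal by arithmetic. Slide could not be fitted as a block. The identity threshold for sequence relatives was not run, as no probe sequences were used here.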
